A study of Mus musculus with 11 samples.

Results

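The cells described here are Cd163l1/Blk γδ T cells of the mouse small-intestinal mesenchyme, the connective tissue under the gut epithelium. They were chosen by measured values, namely the transcripts of 8 genes in droplet single-cell RNA libraries. A cell belonged to the class when it held 1 or more UMIs (unique molecular identifiers, each standing for 1 captured transcript) of Cd3d, Cd3e and Cd3g together, 1 or more of Trdc, 1 or more of Cd163l1 and Blk together, and 0 of Cd8a and of Cd79a. Of 13562 barcodes in the deposited filtered matrices of whole mesenchyme, 12266 passed the limits of at least 500 genes and less than 10% of UMIs from mitochondrial genes, and 226 of these were Cd163l1/Blk γδ T cells. They numbered 110 of 6226 kept cells in replicate 1 and 116 of 6040 in replicate 2. That was a share of 1.77% in replicate 1 and 1.92% in replicate 2, with exact 95% binomial intervals of 1.45% to 2.13% and 1.59% to 2.30%. Among cells with any CD3 UMI the class made up 6.70% and 7.03%. Intervals cover counting error only.

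The study profiled stromal cells of the mouse small intestine by bulk and single-cell RNA sequencing. Results below come from its 2 whole-mesenchyme libraries, named replicate 1 and replicate 2. The labels give no strain, transgene, age or sex for these libraries and do not say whether they came from separate animals. Each p-value below thus measures only how far differences between classes of cells varied between 2 libraries. That spread may be technical. The tissue was stripped of muscle, freed of epithelium with EDTA and digested with collagenase. The labels also describe a sort of GFP cells, a text repeated from the study's sorted library, whereas the whole-mesenchyme libraries hold many cells of other kinds. No treatment or genotype is compared. The comparisons are between classes of cells taken from the same 2 libraries.

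The class was compared with 2 others, with cell numbers given for replicate 1 and then replicate 2, an order kept for all pairs of values below. CD3 cells without Trdc had 2 or more CD3 UMIs and no Trdc UMI, and numbered 1124 and 1147. Other Trdc cells met the same conditions as the Cd163l1/Blk γδ T cells but held no UMI of Cd163l1 or Blk, and numbered 129 and 120. Median UMIs per cell were 3710.5 and 3450.5 in Cd163l1/Blk γδ T cells, 3666 and 3709 in CD3 cells without Trdc, and 3558 and 3432 in other Trdc cells. Mean UMIs per cell differed more, at 4935 and 3835 in Cd163l1/Blk γδ T cells, 7521 and 7912 in CD3 cells without Trdc, and 5163 and 4013 in other Trdc cells. The 2 libraries shared 9 barcodes, of which 0 belonged to a Cd163l1/Blk γδ T cell. A doublet caller marked 4 and 1 of the class.

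γδ T cells carry an antigen receptor built from a γ and a δ chain in place of the α and β chains of most T cells. In mice, one branch leaves the thymus already set to secrete interleukin-17 and settles in barrier tissues such as skin dermis, lung and gut; it can be driven by interleukin-23 and interleukin-1β without recognition of a peptide. Cd163l1 encodes SCART1, a scavenger-receptor-like surface protein known from this branch, and the neighbouring gene 5830411N06Rik encodes a related protein, SCART2. Blk encodes a Src-family kinase of B cells that mouse interleukin-17-producing γδ T cells also use.

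A few sequences are given first, namely receptor segments detected in part of the class and the promoters of Il17a and Il23r. Trdv4 encodes the δ variable segment that was most often detected in the class, and Tcrg-V6 encodes a γ variable segment whose UMIs, few in number, were found in these cells and in none of the comparison cells. Both stretches are the 3′ part of the second coding exon in GENCODE M21 on GRCm38, 5′ to 3′ on the plus strand, from chr14:54075217-54075515 for Trdv4 and chr13:19190630-19190929 for Tcrg-V6. Capitals mark the codon of the conserved cysteine that follows a tyrosine near the 3′ end, where the rearranged junction of the receptor begins.
Trdv4: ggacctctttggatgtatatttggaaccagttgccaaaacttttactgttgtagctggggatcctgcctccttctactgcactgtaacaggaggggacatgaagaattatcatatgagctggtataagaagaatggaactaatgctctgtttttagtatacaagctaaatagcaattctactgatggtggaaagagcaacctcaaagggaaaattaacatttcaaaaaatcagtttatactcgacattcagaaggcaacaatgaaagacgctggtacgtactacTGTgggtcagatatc
Tcrg-V6: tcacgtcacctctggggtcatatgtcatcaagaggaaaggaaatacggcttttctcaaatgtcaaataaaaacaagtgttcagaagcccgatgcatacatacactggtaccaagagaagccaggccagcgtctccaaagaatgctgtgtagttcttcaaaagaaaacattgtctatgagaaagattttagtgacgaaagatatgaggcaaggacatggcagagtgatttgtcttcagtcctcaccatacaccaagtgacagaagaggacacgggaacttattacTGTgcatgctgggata

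The promoters of Il17a, the cytokine that names the programme, and Il23r, its interleukin-23 receptor, are given for the 250 bases before the start site, from the RefSeq promoter table on GRCm38.p6. Il17a lies on the plus strand at chr1:20730655-20730904 and Il23r on the minus strand at chr6:67491856-67492105. Capitals mark each match to AGGTCA, a half-site that many nuclear receptors bind, or to its reverse complement TGACCT.
Il17a: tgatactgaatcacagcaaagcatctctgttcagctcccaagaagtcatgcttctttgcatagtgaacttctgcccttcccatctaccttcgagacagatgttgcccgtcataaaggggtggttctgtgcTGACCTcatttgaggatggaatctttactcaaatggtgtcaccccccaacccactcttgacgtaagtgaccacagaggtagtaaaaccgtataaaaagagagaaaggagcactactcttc
Il23r: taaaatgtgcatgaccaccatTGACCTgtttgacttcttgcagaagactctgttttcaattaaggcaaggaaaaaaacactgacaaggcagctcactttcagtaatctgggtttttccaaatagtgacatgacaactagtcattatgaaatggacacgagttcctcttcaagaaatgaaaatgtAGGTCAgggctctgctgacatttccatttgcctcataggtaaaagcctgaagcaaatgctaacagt
The Il17a match began 120 bases before the start, and the Il23r matches 229 and 66 bases before it. The same letters, on either strand, occurred in 4607 of 32851 promoters of this length in the table (14.0%), and counted by gene in 4260 of 27025 genes (15.8%). Among listed cytokine and receptor genes of the type 17 programme, 4 of 17 with a promoter held a match (23.5%), the other two being Il17f and Il21r. A match of 6 letters describes the sequence and says nothing about binding.

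The genes that chose the cells are given as a description, with no test, since the rule fixed their direction. Levels are CPM, the UMIs of all cells of a class in a library summed and scaled to counts per 1e6 by TMM, a method that corrects for differences in composition. Trdc, the δ chain constant region (chr14:54142851-54148868, plus strand), stood at 1532 and 1631 CPM in Cd163l1/Blk γδ T cells, 0 and 0 CPM in CD3 cells without Trdc, and 527 and 676 CPM in other Trdc cells. Cd163l1 (chr7:140218267-140231145, plus strand) stood at 644 and 654 CPM in Cd163l1/Blk γδ T cells, and 3.45 and 4.22 CPM in CD3 cells without Trdc. Blk (chr14:63372836-63417037, minus strand) stood at 250 and 348 CPM in Cd163l1/Blk γδ T cells, and 4.14 and 4.61 CPM in CD3 cells without Trdc. Cd3e, a signalling chain of every T cell receptor, was at 306 and 344 CPM in Cd163l1/Blk γδ T cells, 246 and 223 CPM in CD3 cells without Trdc and 274 and 332 CPM in other Trdc cells.

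The other marker genes of the class, which the rule did not use but which named the cells, were also highest in it. Tcrg-C1, a γ chain constant region (chr13:19214103-19217024, plus strand), stood at 321 and 346 CPM in Cd163l1/Blk γδ T cells, 19.6 and 16.1 CPM in CD3 cells without Trdc, and 105 and 155 CPM in other Trdc cells. Actn2, an α-actinin best known from muscle (chr13:12269426-12340760, minus strand), stood at 398 and 464 CPM in Cd163l1/Blk γδ T cells, 98.4 and 91.5 CPM in CD3 cells without Trdc, and 94.8 and 122 CPM in other Trdc cells. In both genes, both libraries of the Cd163l1/Blk γδ T cells lay above every library of the other classes. The transcript of Tcrg-C1 was 95.6% identical to that of Tcrg-C2 and 97.1% to that of Tcrg-C3, so reads could not always be assigned to one of them, and values of these 3 genes are uncertain.

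**Figure D1:**
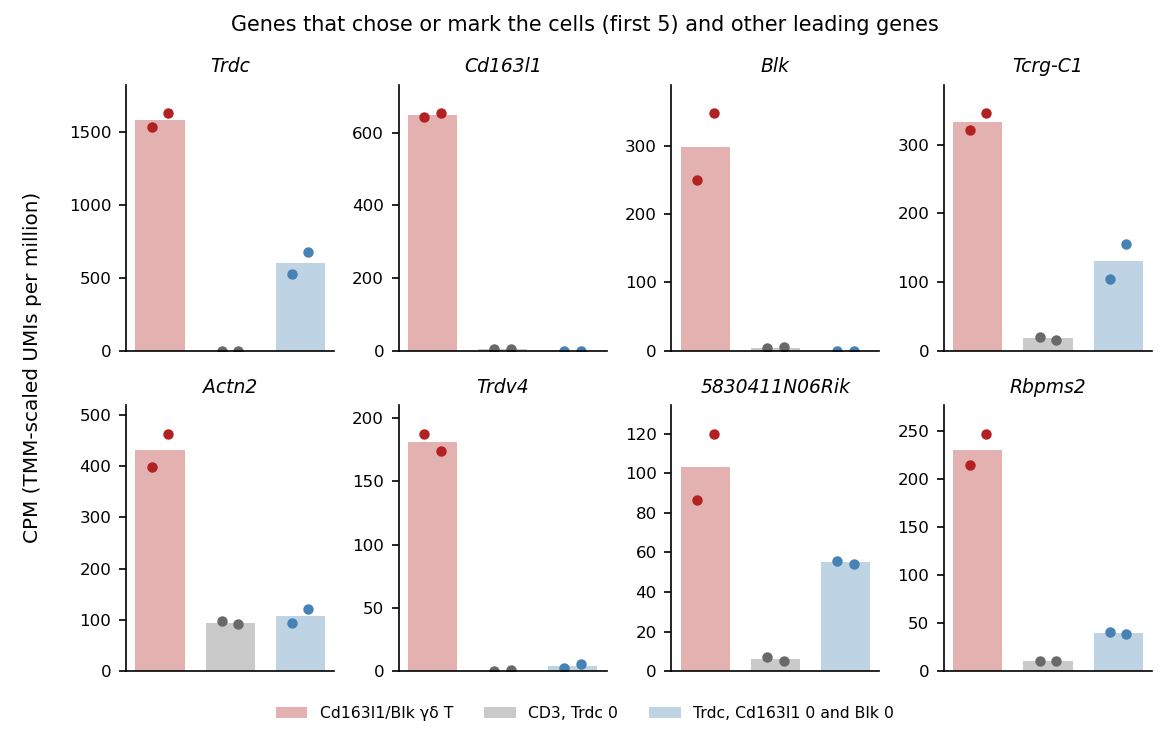
TMM-scaled CPM (linear axis from 0) of 8 genes in 3 classes of cells; bars are the mean of 2 libraries and points the libraries. Trdc, Cd163l1 and Blk chose the cells, Tcrg-C1 and Actn2 named them, and Trdv4 is near 0 in the 2 comparison classes while 5830411N06Rik is shared with other Trdc cells.

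The label of the class was checked against marker lists of the cell types that the tissue could hold. The 5 markers of the class chose or named the cells and cannot serve as a check. Of 8 T cell markers, the 3 CD3 genes belong to the rule, and the other 5, Trac, Trbc1, Trbc2, Cd2 and Lck, were detected in both libraries. Of 5 B cell markers beside Cd79a, which the rule kept at 0, 2 in replicate 1 and 3 in replicate 2 had no UMI, among them Ms4a1 and Pax5. Those 2 genes had no UMI in other Trdc cells either. Cd79b and Cd74 were detected in both libraries. Cd74 had 523 and 307 UMIs, of which 1 cell held 92.7% and 47.2%. Blk itself was found in 31 of 76 and 26 of 72 cells that held Cd79a and Ms4a1 and no CD3 UMI (40.8% and 36.1%). Markers of plasma cells, summed, were at 4005 and 3765 unscaled CPM (UMIs per 1e6 of the class, with no TMM factor) in Cd163l1/Blk γδ T cells, against 217866 and 230207 in CD3 cells without Trdc. Immunoglobulin and other plasma cell transcripts thus made up a large share of the UMIs of that comparison class. A second, matched set of CD3 cells was therefore used beside it, with no UMI of Trdc, Cd8a or Cd79a, 791 and 803 cells, whose plasma cell markers summed to 5091 and 6240 unscaled CPM.

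Markers of group 3 innate lymphoid cells, which share the type 17 programme, were also raised. Their 5 genes summed to 1536 and 1018 unscaled CPM in Cd163l1/Blk γδ T cells, 248 and 164 in CD3 cells without Trdc, and 236 and 1057 in other Trdc cells. In edgeR's quasi-likelihood test, described below, 3 of the 5 were higher than in CD3 cells without Trdc, namely Il22, Tnfsf11 and Kit, and Ncr1 had no UMI in replicate 2. Kit, the stem cell factor receptor, stood at 111 and 80.0 CPM in Cd163l1/Blk γδ T cells and 44.9 and 40.6 CPM in CD3 cells without Trdc (1.15 on the log2 scale, SE 0.17, adjusted p = 0.00122). It is also a mast cell marker, and 3 of the other 4 mast cell markers, Mcpt1, Mcpt2 and Fcer1a, had no UMI in either library of the class. The part of such cells in the results was not tested. In the lists of macrophages and dendritic cells, NK cells, group 2 innate lymphoid cells, epithelium, fibroblasts, endothelium and smooth muscle, 0 markers were called higher in that comparison, and Itgax, Acta2 and Myh11 were called lower.

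Trdc was rare in stromal cells. A UMI of it was found in 0.354% and 0.399% of stromal cells with Dcn, no Ptprc and no CD3 UMI, whose median depth was 7425.5 and 7294.5 UMIs. At the edge of the rule, 7 and 14 cells of the class held a single Trdc UMI, and 16 and 22 held a single UMI of Cd163l1 and Blk together. Just outside it, 26 and 27 cells met every condition except that they held no Trdc UMI. These held Trac, the α chain constant region, at 241 and 164 unscaled CPM and Trdv4 at 0.

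The receptor segments described the class further. Trdv4 (chr14:54074905-54075515, plus strand) stood at 188 and 174 CPM in Cd163l1/Blk γδ T cells, 0.276 and 0.791 CPM in CD3 cells without Trdc, and 2.79 and 5.83 CPM in other Trdc cells. The groups did not overlap. A rearranged Trdv4 transcript carries Trdc, which the rule kept at 0 in CD3 cells without Trdc, so the log2 fold change of 8.27 against them is a description. Against other Trdc cells it was 5.46 (SE 0.40, edgeR's quasi-likelihood test, adjusted p = 6.86e-05). In replicate 2 alone, these values were 7.45 and 4.85.

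Tcrg-V6 (chr13:19190356-19190929, plus strand) had 9 and 5 UMIs in the Cd163l1/Blk γδ T cells and 0 in every library of the 2 comparison classes. With a floor of 3 UMIs over both libraries, this was at least 5.42-fold higher than in other Trdc cells. Against CD3 cells without Trdc the value was at least 82.8-fold. It is a description, since the rule kept γδ T cells with a Trdc UMI out of that class. Both values rest on 14 UMIs of the class and leave out counting error. Variable segments of other γ chains were found as well. Trgv2 had 4 and 5 UMIs in Cd163l1/Blk γδ T cells and 20 and 11 UMIs in other Trdc cells. Tcrg-V1 had 2 and 2 UMIs in Cd163l1/Blk γδ T cells and 7 and 7 UMIs in other Trdc cells, and Tcrg-V4 had 2 and 1 UMIs in Cd163l1/Blk γδ T cells and 1 and 3 UMIs in other Trdc cells. The assay reads the 3′ end of transcripts, far from the variable segment, so a missing segment UMI does not show that a cell used another segment.

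The class was not uniform, and Cd163l1 and its neighbour 5830411N06Rik divided it. Cells with UMIs of both Cd163l1 and Blk numbered 49 and 48, cells with Cd163l1 alone 36 and 34, and cells with Blk alone 25 and 34. Trdv4 stood at 269 and 241 unscaled CPM in cells with both, 174 and 208 unscaled CPM in cells with Cd163l1 alone, and 25.9 and 15.4 unscaled CPM in cells with Blk alone. 5830411N06Rik ran the other way, at 29.5 and 15.4 unscaled CPM in cells with both, 10.6 and 58.2 unscaled CPM in cells with Cd163l1 alone, and 319 and 316 unscaled CPM in cells with Blk alone. Ccr2, a chemokine receptor for entry into tissues, stood at 560 and 636 unscaled CPM in cells with both, 565 and 432 unscaled CPM in cells with Cd163l1 alone, and 68.98 and 84.9 unscaled CPM in cells with Blk alone. Thus the cells with Blk alone were low in Trdv4 and Ccr2 and high in 5830411N06Rik in each library. These are cells of the same 2 libraries, split by genes of the rule, and the values are a description.

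Detection of the same genes was also counted in single cells. Trdv4 was detected in 49 of 110 and 35 of 116 cells, and 47 and 33 of these also held Cd163l1 (95.9% and 94.3%). 5830411N06Rik was detected in 24 cells of each library, of which 0 and 1 also held Trdv4 and 6 and 6 held Cd163l1; the others held Blk by the rule. Tcrg-V6 was found in 9 and 5 cells, of which 7 and 3 held Trdv4. After each cell was thinned to 1000 UMIs, 5830411N06Rik was found in 2.04% and 2.08% of cells with both Cd163l1 and Blk, 2.78% and 5.88% of cells with Cd163l1 alone, and 40.0% and 20.6% of cells with Blk alone.

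**Figure D2:**
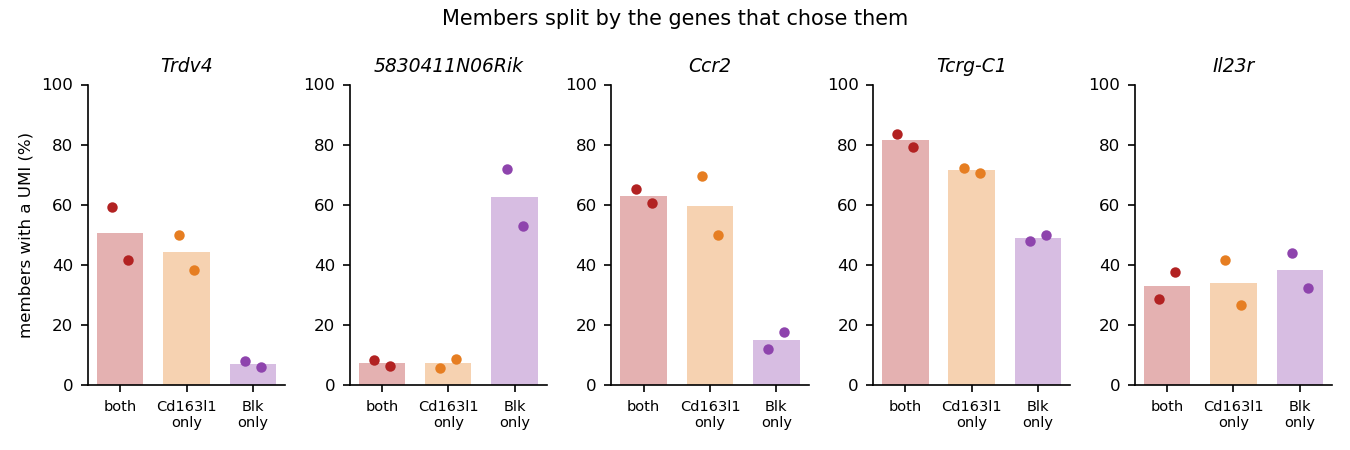
Percent of Cd163l1/Blk γδ T cells with 1 or more UMIs of 5 genes, for cells with Cd163l1 and Blk, with Cd163l1 alone and with Blk alone; points are the 2 libraries. Cells with Blk alone are lowest for Trdv4 and Ccr2 and highest for 5830411N06Rik, which was found in 72.0% and 52.9% of them.

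The first comparison was with CD3 cells without Trdc, whose UMIs included many plasma cell transcripts, and with the matched CD3 cells. Summed counts of the classes in 2 libraries were fitted together with the library as a block, and 8029 genes were tested. Against CD3 cells without Trdc, 946 genes were higher in Cd163l1/Blk γδ T cells (11.8% of those tested) and 521 lower (6.49%) at an adjusted p under 0.05, 1467 in all (18.3%). Against the matched CD3 cells, 589 of 8111 were higher (7.26%) and 268 lower (3.3%), 857 in all (10.6%). The median log2 fold change of all genes was -0.01 in the first fit and -0.05 in the second. List counts below are read against these shares. The gene lists were chosen with earlier results of these data known, so their counts are a description and no separate check of the label.

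Receptors of the type 17 programme were higher in the class. Of 18 type 17 cytokine and receptor genes tested, 11 were higher in Cd163l1/Blk γδ T cells than in CD3 cells without Trdc and 1 lower, with a median log2 fold change of 1.75. Against the matched cells 8 of 19 were higher and 2 lower. Il23r (chr6:67422932-67491855, minus strand), which senses interleukin-23, stood at 95.8 and 115 CPM in Cd163l1/Blk γδ T cells, 9.53 and 7.78 CPM in CD3 cells without Trdc, and 6.97 and 21.4 CPM in other Trdc cells. Il1r1, the signalling receptor of interleukin-1, stood at 126 and 118 CPM in Cd163l1/Blk γδ T cells, 15.6 and 12.9 CPM in CD3 cells without Trdc, and 22.3 and 13.6 CPM in other Trdc cells. For both receptors the class lay far above both comparison classes. The log2 fold changes against CD3 cells without Trdc were 3.59 for Il23r (SE 0.27, adjusted p = 1.94e-05) and 3.09 for Il1r1 (SE 0.21, adjusted p = 1.12e-05), and 2.81 and 2.36 against the matched cells, both called.

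Other genes of that list, 3 receptors and a ligand, also rose. Il2ra, the high-affinity interleukin-2 receptor chain, stood at 415 and 527 CPM in Cd163l1/Blk γδ T cells against 56.2 and 49.8 CPM in CD3 cells without Trdc, a log2 fold change of 3.15 (SE 0.16, adjusted p = 1.29e-06). Il7r, the interleukin-7 receptor, stood at 1144 and 1464 CPM against 406 and 387 CPM (1.71, SE 0.12, adjusted p = 1.21e-05). Il18r1, the interleukin-18 receptor, chosen after its values were seen, stood at 368 and 454 CPM against 112 and 99.5 CPM (1.96, SE 0.15). Tnfsf11, the ligand RANKL, stood at 218 and 259 CPM against 36.6 and 29.3 CPM (2.85, SE 0.18, adjusted p = 6.9e-06). In these 4 genes the classes did not overlap. Il21r, the interleukin-21 receptor, was the one gene of the list that fell, with 107 and 177 CPM in Cd163l1/Blk γδ T cells and 338 and 341 CPM in CD3 cells without Trdc (-1.30, SE 0.17, adjusted p = 6.23e-04).

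The cytokines themselves came from few cells. Il17a (chr1:20730905-20734496, plus strand) stood at 130 and 125 CPM in Cd163l1/Blk γδ T cells, 179 and 163 CPM in CD3 cells without Trdc, and 27.9 and 13.6 CPM in other Trdc cells. It was thus no higher than in CD3 cells without Trdc, with a log2 fold change of -0.44 (SE 0.25, adjusted p = 0.262). Against the matched CD3 cells, at 303 and 302 unscaled CPM, Il17a fell (-1.22, SE 0.26, adjusted p = 0.0114), as it did with each cell thinned to 1000 UMIs (-1.08, adjusted p = 0.00332) and with no filter on low counts (-0.52, adjusted p = 0.0333). An Il17a UMI was found in 14 of 110 and 10 of 116 Cd163l1/Blk γδ T cells, and 1 cell held 50.7% and 60.4% of each library's Il17a UMIs. In the stromal cells with Dcn the share with an Il17a UMI was 0.992% and 0.639%.

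Il22, a cytokine that acts on epithelium (chr10:118204942-118210047), stood at 1193 and 708 CPM in Cd163l1/Blk γδ T cells, 187 and 105 CPM in CD3 cells without Trdc, and 47.4 and 812 CPM in other Trdc cells. Its log2 fold change against CD3 cells without Trdc was 2.71 (SE 0.79, adjusted p = 0.0401), and 2.24 against the matched cells, which did not pass (adjusted p = 0.0831). The call was also lost without predicted doublets (2.90, adjusted p = 0.0606), among cells with Cd163l1 (2.33, adjusted p = 0.0672) and in DESeq2 (2.71, adjusted p = 0.225), where the fold change stayed within 1.5 times of the first. An Il22 UMI was found in 27 of 110 and 22 of 116 cells (24.5% and 19.0%), against 7.01% and 7.03% of the deeper stromal cells, and 14.5% and 12.1% of the class after thinning. Among cells with Cd79a and Ms4a1 and no CD3 UMI, whose median depth was 3146 and 3422 UMIs, the share was 21.1% and 9.72%, so that in replicate 1 the share of the class was close to this background. The highest cell held 19.7% and 42.2% of the UMIs. Both cytokines were found in 4 and 3 cells. Il17f stood at 13.2 and 54.1 CPM in the class and was not called in either comparison.

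Transcription factors of the programme moved in both directions against CD3 cells without Trdc. Of 10 tested, 5 rose and 2 fell against CD3 cells without Trdc (median log2 fold change 0.57), and 3 rose and 0 fell against the matched cells. Rora, which encodes the nuclear receptor RORα (chr9:68653786-69388246), stood at 1953 and 2172 CPM in Cd163l1/Blk γδ T cells and 604 and 588 CPM in CD3 cells without Trdc (1.79, SE 0.11, adjusted p = 8.12e-06). Zbtb16, which encodes PLZF, a factor of innate-like T cells, stood at 186 and 177 CPM and 31.1 and 28.7 CPM in the same classes (2.60, SE 0.18, adjusted p = 1.12e-05). Both were called against the matched cells too. Maf, a factor required by type 17 γδ T cells in mice, stood at 610 and 708 CPM in the class and 401 and 350 CPM in CD3 cells without Trdc (0.81, SE 0.12, adjusted p = 0.00116), but did not pass against the matched cells (0.10, adjusted p = 0.676) or with thinned cells (0.17, adjusted p = 0.461). Ahr, a sensor of aromatic compounds, fell against CD3 cells without Trdc (-0.61, SE 0.17, adjusted p = 0.0342). It did not pass against the matched cells (-0.59, adjusted p = 0.0576). Sox13, a marker of one γδ lineage, was too low to be tested.

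**Figure D3:**
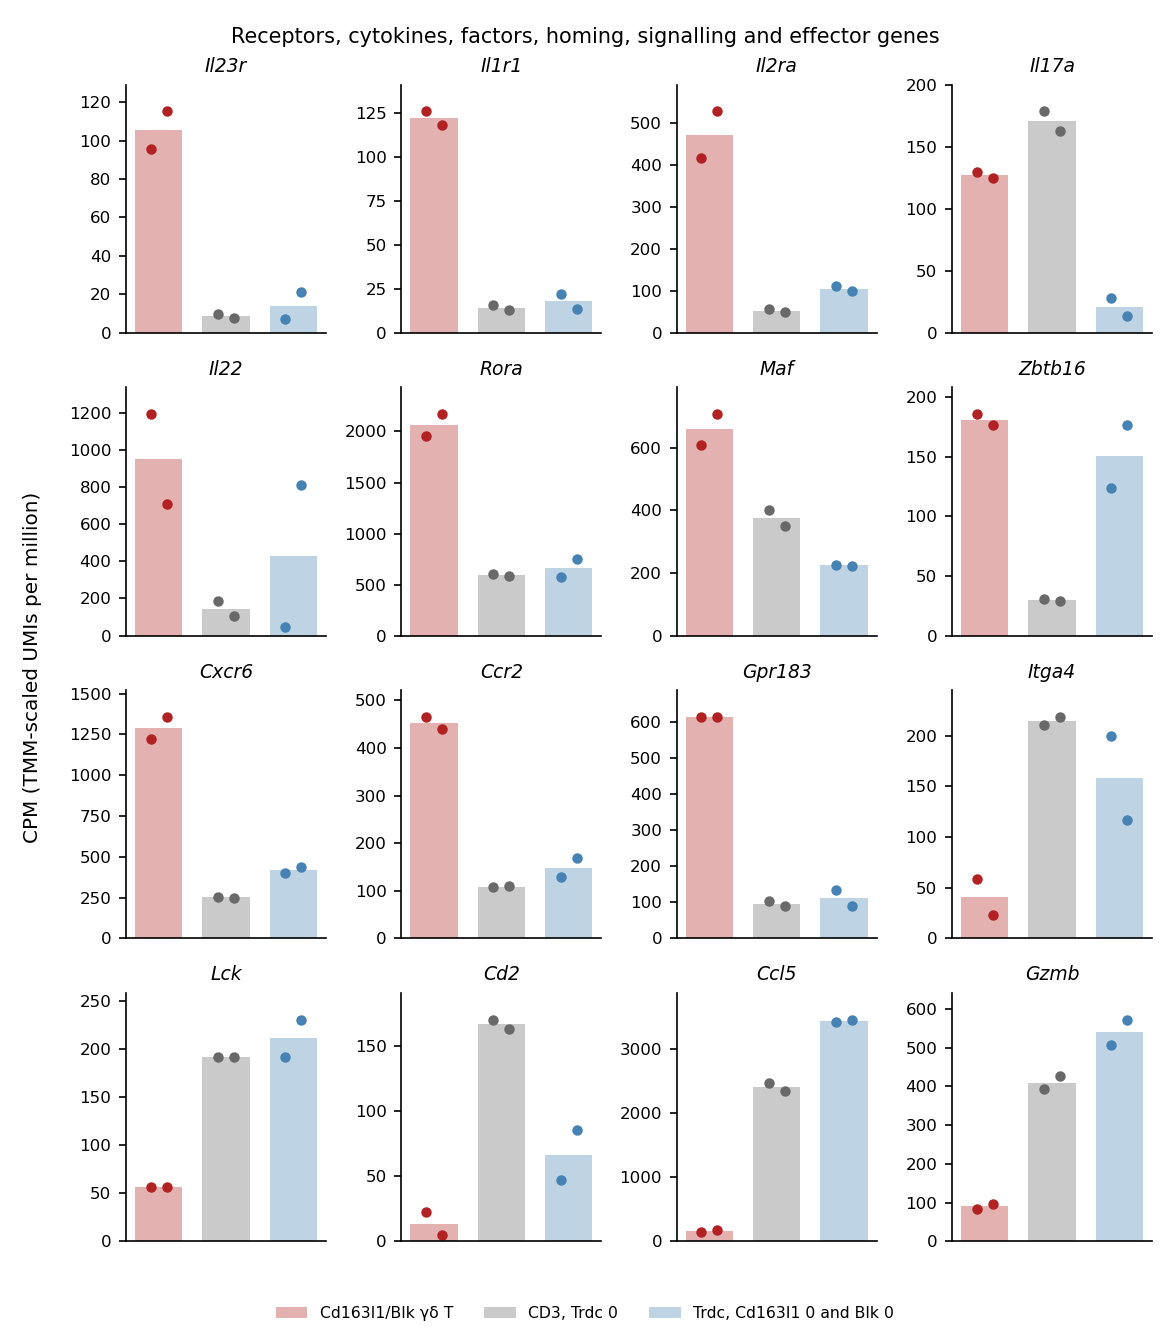
TMM-scaled CPM (linear axis from 0 in each panel) of 16 genes of the type 17 programme, homing, receptor signalling and cytotoxicity in 3 classes; bars are the mean of 2 libraries and points the libraries. Il23r, Il1r1 and Rora are higher in the class than in both comparison classes in each library, and Lck and Cd2 are lower.

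Other listed genes of type 17 T cells, a list chosen with earlier results of these data known, were largely higher. Of 18 tested, 14 rose and 1 fell against CD3 cells without Trdc, with a median log2 fold change of 2.14, and 13 rose and 1 fell against the matched cells. 5830411N06Rik (chr7:140247284-140300736, plus strand), the gene of SCART2, stood at 86.4 and 120 CPM in Cd163l1/Blk γδ T cells, 7.32 and 5.27 CPM in CD3 cells without Trdc, and 55.7 and 54.4 CPM in other Trdc cells. It rose by 4.01 against CD3 cells without Trdc (SE 0.27, adjusted p = 1.12e-05). Its 0.89 against other Trdc cells did not pass (SE 0.28, adjusted p = 0.0892). With no filter on low counts it passed at 0.87 (adjusted p = 0.0488), but among cells with Cd163l1 the value turned to -1.08. Serpinb1a, a protease inhibitor (3.14), Igf1r, the insulin-like growth factor receptor (3.36), Kcnk1, a potassium channel (4.49), and Ckb, the brain creatine kinase (1.96), were among those that rose. Igf1r stood at 276 and 327 CPM in the class and 26.4 and 32 CPM in CD3 cells without Trdc.

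Genes outside the lists with the largest rises included receptors and enzymes of several kinds. Rbpms2, an RNA-binding protein (chr9:65629648-65660528), stood at 214 and 247 CPM in Cd163l1/Blk γδ T cells, 10.2 and 10.6 CPM in CD3 cells without Trdc, and 40.4 and 38.8 CPM in other Trdc cells. Its log2 fold change against CD3 cells without Trdc was 4.46 (SE 0.16, adjusted p = 3.45e-07). Ret, the receptor kinase of glial-derived neurotrophic factors (chr6:118151745-118197718), stood at 128 and 141 CPM against 6.07 and 10.0 CPM (4.07, SE 0.28, adjusted p = 1.12e-05), and the 4 markers of enteric glia had no UMI in the class. Pdcd1, the inhibitory receptor PD-1 (chr1:94038305-94052553), stood at 171 and 108 CPM against 13.0 and 10.4 CPM (3.56, SE 0.22, adjusted p = 6.52e-06). Pde5a, a phosphodiesterase of cyclic GMP, stood at 257 and 313 CPM against 25.3 and 26.8 CPM (3.44, SE 0.17, adjusted p = 1.24e-06). These 4 genes were named from genes whose classes did not overlap, so their separation by library was set by the choice.

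The largest falls against CD3 cells without Trdc were genes of plasma cells and other B-lineage or secretory genes. Iglv1, Slpi, Ccr10, Ighg2b, Mzb1, Igkc, Jchain and Ly6d had log2 fold changes of -8.02 to -6.01. Several moved by over 1.5 times in 1 library alone, and where the class had no UMI in that library the value depends on the prior count. Iglv1 was -11.54 in replicate 2 alone (no UMI) and -6.90 in replicate 1 alone. Slpi was -6.43 in replicate 2 and -10.41 in replicate 1 (no UMI), and Ccr10 -5.85 in replicate 2 and -9.28 in replicate 1 (no UMI). Ighg2b was -8.64 in replicate 1 (no UMI), and Mzb1 -7.84 in replicate 2 and -6.17 in replicate 1. None of them that was tested against the matched cells passed, where the values ran from -1.34 to 0.43, so these falls depended on which CD3 cells were compared.

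Genes of αβ T cells were lower. Of 9 tested, 7 fell and 1 rose against CD3 cells without Trdc (median -2.75), and 6 fell and 0 rose against the matched cells. Both comparisons split the cells by Trdc, and the first kept Cd8a at 0 in the class alone. The falls thus follow in part from the rule, and the counts are a description. Cd8b1, among the 7, was not called against the matched cells (-1.81, adjusted p = 0.237). Trac stood at 47 and 33 CPM in Cd163l1/Blk γδ T cells and 301 and 274 CPM in CD3 cells without Trdc. Its log2 fold change of -2.83 (SE 0.21) is a description for the same reason. Cd4, the coreceptor of helper T cells, stood at 9.39 and 7.06 CPM and 110 and 88.5 CPM in the same classes (-3.57, SE 0.42, adjusted p = 2.8e-04). Transcripts of the β chain constant regions were nevertheless plentiful. Trbc1 stood at 670 and 678 CPM in Cd163l1/Blk γδ T cells and 427 and 458 CPM in CD3 cells without Trdc (0.61, SE 0.15, adjusted p = 0.0166). That rise was not called against the matched cells (0.16, adjusted p = 0.559) and turned to -0.059 with thinned cells. Trbc2 stood at 871 and 875 CPM and 691 and 666 CPM and did not pass (0.36, adjusted p = 0.159). Trbc1 was found in 68 of 110 and 74 of 116 Cd163l1/Blk γδ T cells.

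Receptor signalling genes changed piecewise. Of 22 tested, 5 rose and 7 fell against CD3 cells without Trdc (median -0.17), and 3 rose and 8 fell against the matched cells. Lck, the Src-family kinase that starts signalling in most T cells (chr4:129548344-129573641, minus strand), stood at 56.3 and 56.5 CPM in Cd163l1/Blk γδ T cells, 192 and 192 CPM in CD3 cells without Trdc, and 192 and 231 CPM in other Trdc cells. Lck was thus below both comparison classes. Its log2 fold change was -1.76 (SE 0.17, adjusted p = 9.88e-05) against CD3 cells without Trdc and -1.90 (SE 0.19, adjusted p = 2.46e-04) against other Trdc cells. An Lck UMI was found in 15 of 110 and 17 of 116 Cd163l1/Blk γδ T cells, and in 64.1% and 63.2% of CD3 cells without Trdc. Cd2, an adhesion receptor, stood at 22.5 and 4.71 CPM in the class and 171 and 164 CPM in CD3 cells without Trdc (-3.51, SE 0.39, adjusted p = 1.94e-04; -5.06 in replicate 2 alone). Cd247, the ζ chain, ran the other way with 246 and 322 CPM against 85 and 86.6 CPM (1.71, SE 0.15, adjusted p = 4.56e-05). Txk, a Tec-family kinase, rose to 426 and 534 CPM against 164 and 154 CPM (1.59, SE 0.18). Fyn, the other Src kinase of T cells, did not pass (-0.28, adjusted p = 0.204), but fell against the matched cells (-0.57, adjusted p = 0.0261).

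Among cytotoxic and type 1 genes more were called lower than higher. Of 20 tested, 8 fell and 3 rose against CD3 cells without Trdc (median -0.45), and 8 of 21 fell and 2 rose against the matched cells. Ccl5, a chemokine of cytotoxic cells, stood at 139 and 169 CPM in Cd163l1/Blk γδ T cells and 2466 and 2350 CPM in CD3 cells without Trdc (-3.97, SE 0.15, adjusted p = 3.45e-07). Gzmb, granzyme B, stood at 84.5 and 96.5 CPM and 392 and 426 CPM (-2.18, SE 0.13, adjusted p = 6.56e-06). Gzma, granzyme A, was found in 4.55% and 6.03% of the class, against 6.02% and 4.63% of the stromal cells, a share at the background. Ifng was at 1.88 and 11.8 CPM in the class and 35.3 and 26.4 CPM in CD3 cells without Trdc; its call (-2.34, SE 0.69, adjusted p = 0.0422; -4.13 in replicate 1 alone and -1.15 in replicate 2 alone) was lost with no library block (-2.29, adjusted p = 0.0931), thinned cells (-2.18, adjusted p = 0.0828), cells with Cd163l1 (-1.99, adjusted p = 0.0974) and DESeq2 (-2.16, adjusted p = 0.0940). Klrk1, the activating receptor NKG2D, was among the 3 genes that rose, at 175 and 252 CPM against 36.0 and 35.7 CPM (2.55, SE 0.23).

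Homing genes split in the class. Of 17 tested, 8 rose and 4 fell against CD3 cells without Trdc (median 0.32). Cxcr6, a receptor of tissue-resident lymphocytes, stood at 1219 and 1358 CPM in Cd163l1/Blk γδ T cells and 254 and 248 CPM in CD3 cells without Trdc (2.36, SE 0.13, adjusted p = 3.39e-06). Ccr2 stood at 466 and 440 CPM and 107 and 110 CPM (2.06, SE 0.14, adjusted p = 1.07e-05), and Gpr183, a receptor for oxysterols, at 612 and 614 CPM and 103 and 88.9 CPM (2.68, SE 0.14, adjusted p = 1.57e-06). Itga4, the α4 integrin used to enter the gut, fell to 58.2 and 23.5 CPM in the class against 210 and 219 CPM (-2.36, SE 0.30, adjusted p = 4.19e-04). Itgae, the αE integrin that holds lymphocytes to epithelium, stood at 16.9 and 7.06 CPM against 86.3 and 85.8 CPM (-2.79, SE 0.40). Itgb7, the β chain that pairs with both integrins, rose to 334 and 400 CPM in the class against 192 and 191 CPM (0.93, SE 0.13). Ccr6, often used to mark these cells elsewhere, did not pass (-0.44, SE 0.48, adjusted p = 0.582).

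Some genes of naive and regulatory T cells were lower, and some of tissue repair higher. Of 10 genes of naive and recirculating T cells, 5 fell and 0 rose (median -0.95). Foxp3, the factor of regulatory T cells, had no UMI in the class against 20.2 and 21.4 CPM in CD3 cells without Trdc, at least 5.78-fold lower with a floor of 3 UMIs over both libraries, and 5 of 9 regulatory T cell genes fell while Ikzf2 and Capg rose. Of 7 tissue repair and growth factor genes 4 rose and 0 fell, and 2 rose against the matched cells. Hbegf, an epidermal growth factor relative, stood at 69.5 and 75.3 CPM in the class and 2.21 and 3.69 CPM in CD3 cells without Trdc (4.57, SE 0.48, adjusted p = 1.5e-04). Areg, which encodes amphiregulin, stood at 195 and 162 CPM and 86.2 and 72 CPM (1.16, SE 0.28, adjusted p = 0.0161), and its 0.67 against the matched cells did not pass (adjusted p = 0.21). Few cells of the class carried either gene. Areg was found in 18 of 110 and 10 of 116 cells, and 5 cells held 76.0% and 91.3% of its UMIs. Hbegf was found in 15 and 15 cells, and 5 cells held 59.5% and 68.8%. Of 7 type 2 genes 1 rose, which was Areg, with a median of -1.13 as fitted and -0.38 with genes at 0 set to their bound. Of 15 immediate early and heat shock genes 7 rose and 2 fell. Of 7 lipid handling genes 0 rose and 1 fell, Scd2, which was not called against the matched cells. Of 8 cell cycle genes 0 were called in edgeR's test.

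The second comparison set the class beside its nearest relatives, the other Trdc cells, which differ in the rule by Cd163l1 and Blk alone. In this comparison 436 of 8029 genes were higher in Cd163l1/Blk γδ T cells (5.43%) and 152 lower (1.89%), 588 in all (7.32%). Of 18 other type 17 genes 14 rose and 0 fell (median 1.98), of 18 cytokines and receptors 9 rose and 1 fell (median 1.68), and of 20 cytotoxic and type 1 genes 10 fell and 3 rose (median -1.71), beside a median of -0.02 over all genes. Il23r rose by 2.996 (SE 0.38, adjusted p = 0.00118; 3.73 in replicate 1 alone), Il1r1 by 2.72 (SE 0.29, adjusted p = 4.25e-04) and Il17a by 2.57 (SE 0.40, adjusted p = 0.00362; 3.18 in replicate 2 alone). Il22 did not pass (1.30, adjusted p = 0.429; 4.63 in replicate 1 alone and -0.20 in replicate 2 alone), with 47.4 and 812 CPM in the 2 libraries of other Trdc cells. With no filter on low counts it did pass (1.28, adjusted p = 1.52e-37), although the libraries differ in its direction.

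Several cytotoxic genes were lower in the class than in other Trdc cells. Ccl5 stood at 139 and 169 CPM in Cd163l1/Blk γδ T cells and 3421 and 3464 CPM in other Trdc cells (-4.49, SE 0.15, adjusted p = 4.77e-07), Gzmb at 84.5 and 96.5 CPM and 507 and 573 CPM (-2.58, SE 0.14, adjusted p = 1.66e-05), and Xcl1, a chemokine for dendritic cells, at 45 and 30.6 CPM and 302 and 375 CPM (-3.12, SE 0.22, adjusted p = 5.93e-05). Nkg7, a granule protein, stood at 269 and 226 CPM in the class and 563 and 771 CPM in other Trdc cells (-1.43, SE 0.23). Klrd1, the receptor chain CD94, stood at 0 and 11.8 CPM and 183 and 188 CPM (-5.13, SE 0.56, adjusted p = 4.32e-04; -3.98 in replicate 2 alone and -9.77 in replicate 1 alone, where the class had no UMI and the value depends on the prior count). The groups did not overlap in any of these genes. For Klrd1, Ccl5 and Xcl1 that was a condition of counting them among the largest falls.

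Some genes of the first comparison did not pass here. Zbtb16 stood at 186 and 177 CPM in Cd163l1/Blk γδ T cells and 124 and 177 CPM in other Trdc cells and did not pass (0.30, adjusted p = 0.414). Trac did not pass either (-0.31, adjusted p = 0.595), with 47 and 33 CPM and 47.4 and 54.4 CPM. Itga4 (-1.92, SE 0.33, adjusted p = 0.0063) and Itgae (-3.11, SE 0.43) fell against other Trdc cells. So did Cd27, a costimulatory receptor lost by type 17 γδ T cells in mice (-2.52, SE 0.36, adjusted p = 0.00233; -3.36 in replicate 2 alone; 26.3 and 11.8 CPM in the class and 106 and 122 CPM in other Trdc cells). Maf rose by 1.55 (SE 0.13, adjusted p = 1.28e-04). Cd93, a cell-surface glycoprotein, stood at 220 and 235 CPM in the class and 12.5 and 33 CPM in other Trdc cells (3.41, SE 0.33, adjusted p = 2.34e-04; 4.09 in replicate 1 alone and 2.83 in replicate 2 alone).

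**Figure D4:**
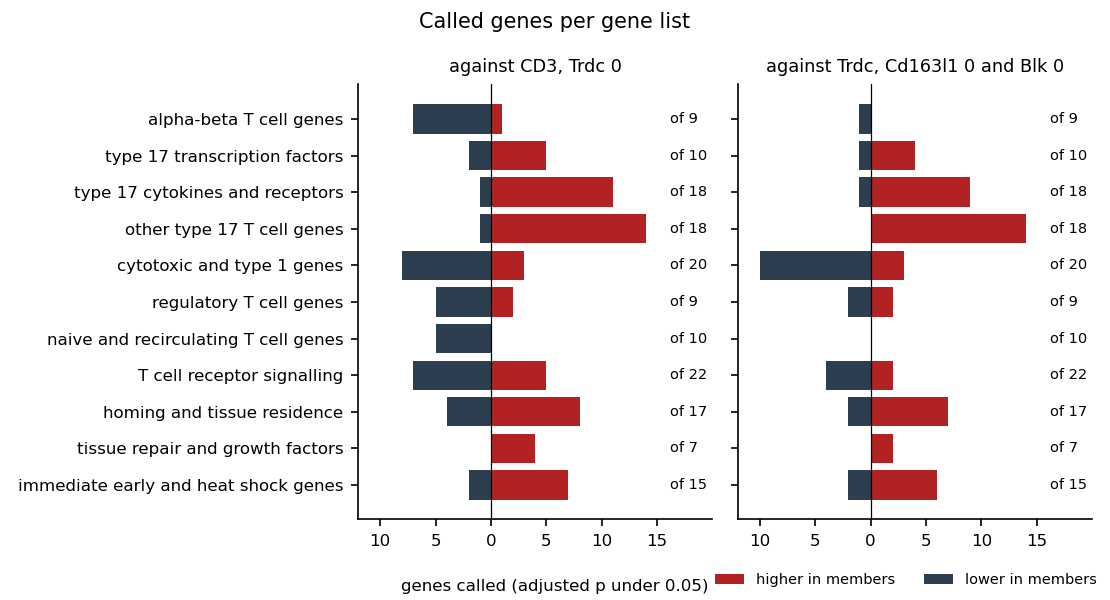
Number of genes called higher (right of 0) and lower (left of 0) in Cd163l1/Blk γδ T cells at an adjusted p under 0.05, for each gene list and for each of 2 comparisons, with the number tested as "of n". The other type 17 T cell genes reach 14 higher both against CD3 cells without Trdc and against other Trdc cells. The lists were chosen with earlier results of these data known.

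Cd163l1/Blk γδ T cells had more mitochondrial RNA than the comparison classes. The median share of UMIs from the mitochondrial genome was 6.48% and 6.45% in Cd163l1/Blk γδ T cells, 4.81% and 4.78% in CD3 cells without Trdc, and 5.06% and 4.87% in other Trdc cells. Of 13 mitochondrially encoded genes, a list added after their level was seen, 10 rose and 0 fell against CD3 cells without Trdc (median 0.41), and 9 rose and 0 fell against other Trdc cells. mt-Cytb, a subunit of respiratory complex III, stood at 4870 and 4890 CPM in the class and 3780 and 3951 CPM in CD3 cells without Trdc (0.34, SE 0.06). The share moved with the classes in every comparison above, and its part in their calls was not tested. A stricter limit would have removed most of the class, since 13 of 110 and 13 of 116 Cd163l1/Blk γδ T cells were under 5% mitochondrial UMIs, against 633 of 1124 and 658 of 1147 CD3 cells without Trdc.

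**Figure D5:**
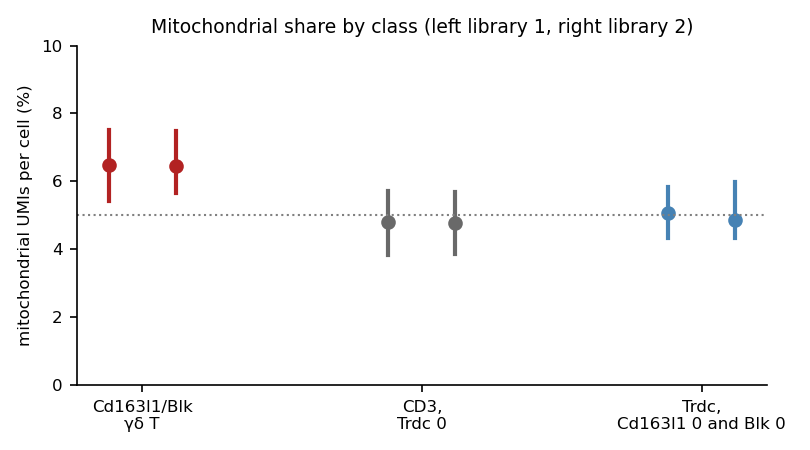
Percent of UMIs from the mitochondrial genome per cell in 3 classes, by library; points are medians and lines the middle quartiles, and the dotted line marks 5%. The medians of Cd163l1/Blk γδ T cells, 6.48% and 6.45%, lie above those of the other classes.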

How the data were processed

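The values are UMI counts per gene and cell barcode, deposited by the authors as filtered matrices made with Cell Ranger 3.0.2 on mm10, per the submitters' processing notes; their annotation is not given in the sources used here. Bulk libraries have a table of raw counts per gene, deposited by the authors and aligned with STAR per the same notes. Cells were gated as described, and UMIs were summed per class and library. Summed counts were tested in edgeR 4.0.16 (R 4.3.3; TMM, filterByExpr, quasi-likelihood F-tests, Benjamini-Hochberg over all genes tested, called under 0.05) with 4 classes in one model (a further class of cells and some list genes are not reported here), 3 residual degrees of freedom and a common biological coefficient of variation of 0.114. The library was a block because both classes of a comparison come from the same 2 libraries, the pairing source. Class totals were 542829 and 444839 UMIs for Cd163l1/Blk γδ T cells and 481565 to 9075370 for the other classes. DESeq2 1.42.0, doublet removal with scrublet (scanpy 1.11.5) and other gates were alternatives; doublets were kept in the main analysis.

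The members and gene lists were chosen with earlier results of these data known. Genes were named by rule: a fixed panel, the called genes with the largest changes, a mean of 100 CPM or more in the higher class and no overlap between classes (8 each way against CD3 cells without Trdc, 5 each way in other comparisons), and up to 3 called genes per list. Some other list genes, Il18r1, Itgae, Itgb7, Txk, Klrk1 and Nkg7, were chosen after their values were seen, as were the mitochondrial genes. Genes of the rule were given no test. Coordinates are 1-based on GRCm38, from GENCODE M21.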

Additional observations from a re-analysis of the deposited data

Results flagged for a closer look

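Transcripts of Cd163l1 and Blk also appeared in the bulk libraries of sorted stromal and endothelial cells, data that no comparison above uses and that have no control samples. Each value below was marked because it lay above the 3 counts that a count of 0 allows. Cd163l1 had 7 and 15 counts in the telocyte libraries, 4 and 40 in the PDGFRAlo libraries, 29 and 42 in the blood endothelium libraries and 16 and 10 in the lymphatic endothelium libraries, with replicate 1 given first. Blk had 8 counts in telocyte replicate 2, 6 and 105 in the PDGFRAlo libraries, 83 and 111 in the blood endothelium libraries and 161 and 88 in the lymphatic endothelium libraries. Blk is also a B cell gene, and no gene named Trdc was listed for these libraries. Cd3g, a T cell gene, had counts in every bulk library, from 8 in telocyte replicate 1 to 3675 in blood endothelium replicate 1. Which cells the counts came from was not tested. In bulk samples, fewer cells of a type and less RNA per cell cannot be told apart.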

How the results depend on the processing

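Against CD3 cells without Trdc, 1467 of 8029 genes tested were called. With each cell thinned to 1000 UMIs it was 678 of 3354, and with the matched CD3 cells 857 of 8111. Of those 857, 746 were among the 1467. Against other Trdc cells 588 of 8029 became 318 of 3354 with thinned cells and 993 of 17383 with no filter on low counts. Settings that test different numbers of genes give counts that are not on one scale. Counts under the remaining alternatives were within 1.5 times of 1467 and 588. With no replicate block for the library the counts were 1638 and 645; the only named call that it ended was that of Ifng against CD3 cells without Trdc, given above, and it added 1 call, that of Tbx21 against other Trdc cells (-1.31, adjusted p = 0.0427). DESeq2, fitted to 17383 genes, called 1062 and 538. The share of called genes that were higher against CD3 cells without Trdc was 64.5%, but 74.0% in DESeq2 and 48.9% with no filter, where the median of all genes was -0.44; against other Trdc cells it was 74.1% and 58.7% with no filter. Each library alone leaves no residual degrees of freedom and gave no test. All 1467 and 588 called genes kept their direction in each. Genes whose direction differs between the libraries are seldom called, so this is no separate check of the calls. Of 96 called named values, 2 changed sign: Trbc1 was -0.059 with thinned cells and Ighg2b 0.43 against the matched cells. Of 25 named values that were not called, 12 changed sign under an alternative, 9 of them when 1 library was left out, such as Il17f against CD3 cells without Trdc (0.64 and -0.60 without replicate 2) and, against other Trdc cells, Il17f (0.97 and -1.16 without replicate 2), Cd5 (0.11 and -2.79 without replicate 1) and Cd4 (-0.64 and 0.40 without replicate 2). Of the named calls that thinning kept, 33 of 82 moved by over 1.5 times, as did 17 of 45 against the matched cells. The share of Cd163l1/Blk γδ T cells among kept cells was 0.346% and 0.357% under a limit of 5% mitochondrial UMIs, 1.37% and 1.36% with Cd163l1 required, and 1.19% and 1.36% with Blk required. With 110 and 116 cells, genes with few UMIs such as Tcrg-V6 limit what can be detected at this depth.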

Other observations

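The study's sorted PDGFRA-GFP single-cell library held 3890 cells under the same limits, of which 8 had a CD3 UMI and 0 had a UMI of Cd163l1 or Blk. The full rule could not be applied to it, since no gene named Trdc was listed for that library.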
